A study of Durio zibethinus with 9 samples.

Results

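Durian (Durio zibethinus) var. D24 pulp was compared between the ripening stage (RS) and the mature stage (MS), with 3 libraries each of the 9 in the series. RS fruits were 127 days old, and MS fruits 120 days old. Ripening, by the methods of the study, took place at room temperature in fruits harvested mature. Ripening and storage after harvest therefore cannot be told apart in this contrast. The remaining 3 libraries came from young pulp (YS, 90 days) and are given here mainly as a level beside a gene. Each stage was described by the study as a biological triplicate, all samples were of the D24 cultivar, and no label names another treatment. The libraries were made from poly-A RNA, and nothing in the labels says whether a library holds 1 fruit or a pool. The tissue label was not checked against marker genes, because product names came only from the study's own gene tables.

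Durian is a climacteric fruit, in which ethylene production and respiration increase as the mature fruit ripens. Softening of the pulp is a matter of the cell wall. Polygalacturonases and pectinesterases act on pectin, endoglucanases on cellulose-like glucans, and xyloglucan endotransglucosylase/hydrolases on the xyloglucan that ties cellulose together. Ethylene is made from methionine by way of S-adenosylmethionine (SAM) and 1-aminocyclopropane-1-carboxylate (ACC), and methionine is also the substrate of methionine gamma-lyase, which releases the methanethiol behind the sulfur aroma of durian.

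Gene levels are FPKM as deposited, a fragment count scaled to gene length and to the mapped fragments of the library, and a gene missing from a library's table was counted as 0. Of 39453 reference genes found in any library, 21598 that reached 1 FPKM in at least 3 of the 9 libraries were tested with limma on log2(FPKM + 1). Changes are log2 fold changes of RS over MS on that scale, which makes the change of low genes smaller, and a change given without a unit is such a log2 value. Values of a gene are listed in the order of libraries 1, 2 and 3. A gene rose or fell where its log2 fold change lay beyond 1.5 and its adjusted p was under 0.05. Mapped bases, read from the ratio of coverage to FPKM, were 2756, 2614 and 2350.2 Mb in the RS libraries and 2935, 2685 and 3018 Mb in the MS libraries. For a single gene, 3 against 3 libraries allow an exact permutation p of 0.1 at the least. Whether the libraries of a biological triplicate came from separate fruits or trees is not given in the sources used here, so the p-values speak for the spread among these libraries alone.

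Libraries within a stage were not equally alike. The MS libraries were nearly the same, with an SD of the log2 ratio between 2 libraries of 0.123 to 0.127 over genes that reached 10 FPKM in both. RS libraries 1 and 2 had an SD of 0.151. RS library 3 stood apart from both, with SDs of 0.614 and 0.597, and it had 15171 genes that reached 1 FPKM, against 19614 and 19471 in RS libraries 1 and 2 and 19123 to 19154 in the MS libraries. In RS library 3 the 10 highest genes took 26.3% of all FPKM, against 8.34% and 8.74% in RS libraries 1 and 2 and 10.8% to 10.9% in the MS libraries. Calls below were therefore also read without RS library 3, and with all MS libraries merged into a single sample by their mean (the averaged-MS fit), whose error came from YS and RS.

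At RS relative to MS 853 genes rose, 3.95% of those tested, and 1136 fell, 5.26% of those tested. Without RS library 3, 1310 rose (6.07%) and 630 fell (2.92%), and 837 of the 853 rises and 622 of the 1136 falls were among them. Over all tested genes the median change was -0.40, and -0.15 without RS library 3. Dividing the FPKM by size factors brought the median to 0.00, and 1409 genes (6.52%) then rose and 463 (2.14%) fell, so the excess of falls over rises was gone with size factors or without RS library 3. Under the averaged MS libraries 128 genes (0.593%) rose and 58 (0.269%) fell, each of them among the genes that passed before. RS lay above MS without overlap of the libraries in 2899 genes (13.4%) and below it in 10291 (47.6%).

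Genes that rose made up 20.2%, 20.8% and 44.8% of all FPKM in RS libraries 1, 2 and 3, against 2.77% to 2.85% in the MS libraries. Genes that fell made up 4.43%, 4.35% and 2.56% of FPKM in the RS libraries, against 17.2% to 17.3% in the MS libraries. A mean FPKM of 10 or more at RS with less than 1 at MS was found for 66 of the rises. The opposite, less than 1 at RS and 10 or more at MS, was found for 31 of the falls.

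**Figure D1:**
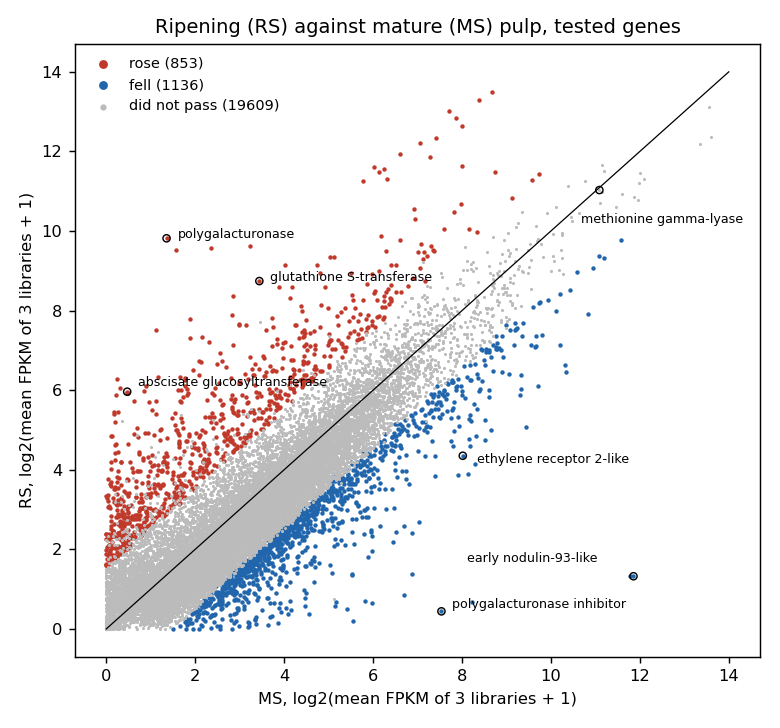
Mean level of each of the 21598 tested genes at RS (vertical axis) and MS (horizontal axis), as log2(mean FPKM of 3 libraries + 1), with genes that rose in red and genes that fell in blue. The 853 genes that rose lie above the line of equal level and the 1136 that fell below it, and the methionine gamma-lyase LOC111308047 lies near it.

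Product names allowed 34 lists to be drawn, with 286 tested genes. The study had named these genes from the same samples, so no count below is independent evidence of a direction. Of the list genes 67 rose and 38 fell, and 100 rose and 31 fell without RS library 3. All 6 tested glutathione S-transferase genes rose, as did 9 of 11 small heat shock proteins and chaperone partners and 7 of 10 abscisic acid genes. Falls were frequent among auxin and cytokinin genes, where 3 of 4 fell, LOB domain proteins, where 5 of 7 fell, and ethylene receptors and their signalling partners, where 4 of 8 fell. Without RS library 3 these counts were 6 of 6, 8 of 11, 8 of 10, 3 of 4, 4 of 7 and 4 of 8, and leaving it out raised the count of rises in most lists of wall enzymes. In bulk pulp, fewer cells of a type and less RNA per cell cannot be told apart.

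**Figure D2:**
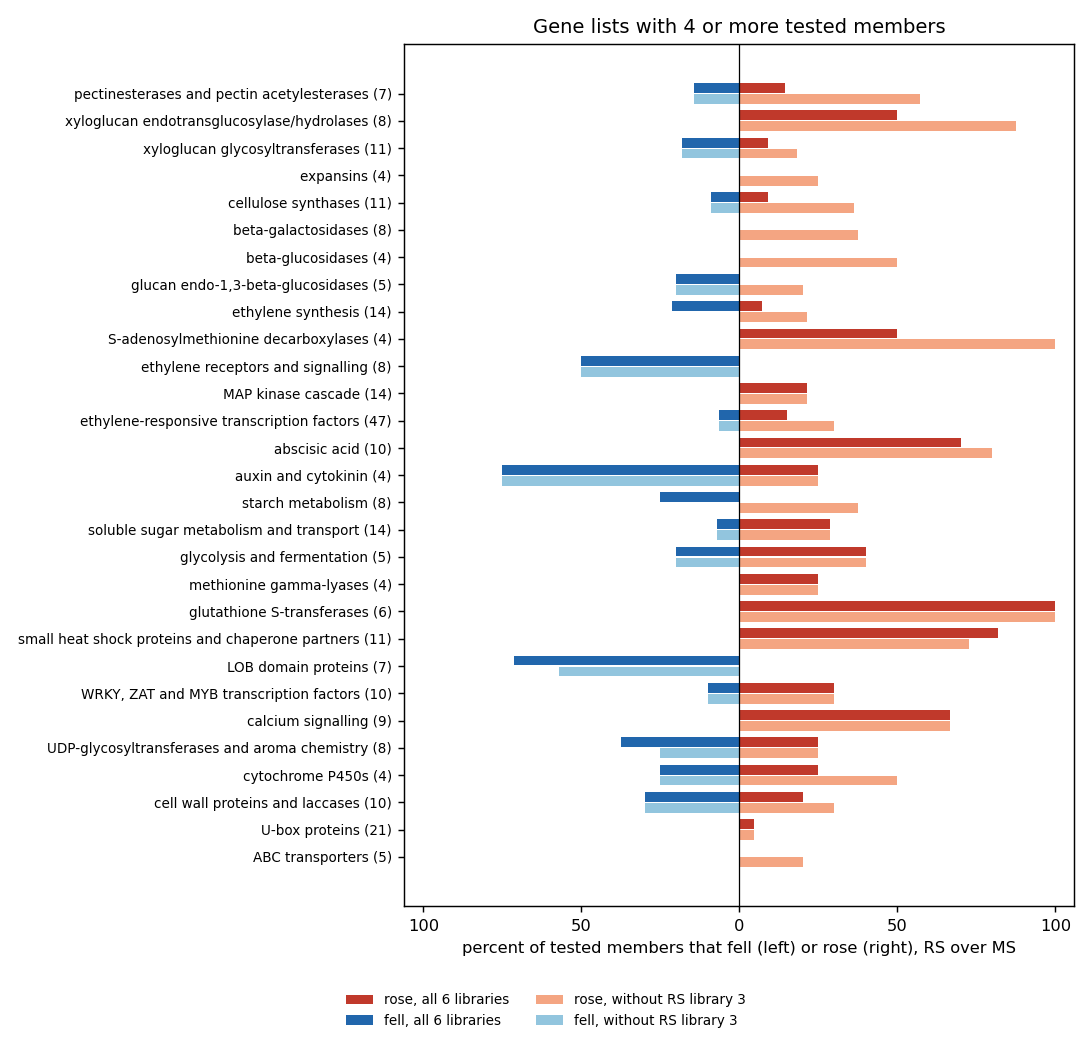
Percent of the tested members of each list (number in brackets, lists with 4 or more) that rose (right, red) or fell (left, blue) at RS relative to MS, with dark bars for all 6 libraries and pale bars without RS library 3. Glutathione S-transferases reach 100% either way, while xyloglucan endotransglucosylase/hydrolases rose in 4 of 8 with all libraries and in 7 of 8 without RS library 3.

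Both tested polygalacturonase genes were higher at RS, and the gene of a polygalacturonase inhibitor was lower. The polygalacturonase-like gene LOC111311521 (scaffold NW_019167937.1, 1007587 to 1011384) had 1341, 1319.7 and 41.2 FPKM in the RS libraries and 1.89, 1.26 and 1.54 FPKM in the MS libraries. RS libraries 1 and 2 were alike, RS library 3 was far below them, and all 3 were above every MS library. The log2 fold change was 7.37 (standard error 1.27, adjusted p = 0.00696), and 9.03 without RS library 3. The other tested gene, probable polygalacturonase At3g15720 (LOC111274286), had 30.995, 24.5 and 12.9 FPKM in the RS libraries and 2.06, 3.26 and 3.14 FPKM in the MS libraries and rose by 2.57 (adjusted p = 0.00241). Polygalacturonase inhibitors are wall proteins that inhibit polygalacturonases, and the study notes their role in plant defence. Whether this one acts on durian's own enzymes was not tested. The inhibitor-like gene LOC111311552, on the same scaffold from 1351425 to 1352844, had 0.413, 0.436 and 0.227 FPKM in the RS libraries and 186, 182 and 186 FPKM in the MS libraries. All 3 RS libraries were under 1 FPKM, and the gene fell (log2 fold change -7.10, adjusted p = 5.48e-06), also with the MS libraries averaged (-7.10, adjusted p = 0.00199). At YS the mean was 0.582 FPKM, so that of the 3 stages MS was the one with a high level of this gene. Among all 1136 falls the YS mean lay on the RS side of the MS mean in 979, and nearer to the RS mean than to the MS mean (log2) in 660. With the MS libraries averaged, neither polygalacturonase passed (adjusted p = 0.0688 and 0.0758).

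Among 7 tested pectinesterases and pectin acetylesterases, which remove methyl and acetyl groups from pectin, 1 rose and 1 fell. The gene named pectin acetyltransferase 7-like, LOC111289825, had 70.4, 74.5 and 9.48 FPKM in the RS libraries and 6.82, 7.104 and 4.91 FPKM in the MS libraries. RS library 3 came close to the MS level, and the rise (2.41, adjusted p = 0.0434) did not pass without RS library 1 or 2 or any MS library. Pectinesterase 3-like LOC111317423 went the other way, with 3.81, 2.70 and 0.436 FPKM in the RS libraries and 24.2, 24.05 and 23.3 FPKM in the MS libraries, and fell (-3.08, adjusted p = 0.00319). Without RS library 3, 4 members rose. They include pectinesterase 3 LOC111274745 (3.02, adjusted p = 1.57e-06) and the neighbouring pectinesterase-like LOC111274750 (2.71, adjusted p = 4.62e-06), which lie 1703 bases apart on one strand of scaffold NW_019167982.1. With all libraries their log2 fold changes were 1.92 (adjusted p = 0.115) and 1.78 (adjusted p = 0.0949). Neither LOC111289825 nor LOC111317423 passed in the averaged-MS fit (adjusted p = 0.382 and 0.113).

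Cellulose and xyloglucan genes changed in both directions. Endoglucanase-like LOC111278395 had 93.5, 97.8 and 39.3 FPKM in the RS libraries and 0.291, 0.0551 and 0.226 FPKM in the MS libraries. The groups were far apart, and its change of 5.93 (standard error 0.36, adjusted p = 0.000146) was exceeded among named products only by a polygalacturonase and a glutathione S-transferase. It did not pass in the averaged-MS fit (adjusted p = 0.19). Its YS libraries had 1154, 49.95 and 13.95 FPKM, so that YS library 1 carried most of their mean. Of 8 tested xyloglucan endotransglucosylase/hydrolase (XTH) genes 4 rose, and 7 did without RS library 3. The XTH gene LOC111285714 had 83.8, 79.4 and 4.71 FPKM in the RS libraries and 1.67, 3.003 and 2.32 FPKM in the MS libraries, so that RS library 3 lay at a small fraction of the other RS libraries and still above all MS libraries. Its rise of 3.37 (adjusted p = 0.0397) was 4.65 without RS library 3 and did not pass without RS library 1 or 2 or any MS library, or in the averaged-MS fit (adjusted p = 0.355). The neighbouring XTH gene LOC111284692, with 1 gene between them on scaffold NW_019168159.1, had 67.8, 64.8 and 3.43 FPKM in the RS libraries and 8.55, 8.93 and 7.95 FPKM in the MS libraries. There RS library 3 was below every MS library, and the log2 fold change of 1.52 did not pass (adjusted p = 0.265).

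Synthesis genes of the wall were mostly within the threshold. Cellulose synthase-like protein G2 LOC111280213 had 0.925, 0.737 and 0.0853 FPKM in the RS libraries and 11.3, 12.5 and 11.8 FPKM in the MS libraries and fell (-3.07, adjusted p = 0.000394, and 0.0339 with the MS libraries averaged). Cellulose synthase-like protein D3 LOC111276893 had 11.9, 11.8 and 3.31 FPKM in the RS libraries and 1.98, 1.51 and 1.46 FPKM in the MS libraries and rose (1.76, adjusted p = 0.0226), which did not pass when any 1 library but RS library 3 was left out. In all 1 of 11 cellulose synthase and synthase-like genes rose and 1 fell, and 4 rose and 1 fell without RS library 3. Among 11 xyloglucan glycosyltransferases, which build the polymer's backbone and side chains, 1 rose and 2 fell. Xyloglucan glycosyltransferase 4-like LOC111291944 had 21.02, 23.96 and 1.54 FPKM in the RS libraries and 0.378, 0.71 and 0.371 FPKM in the MS libraries, a rise of 2.92 (adjusted p = 0.0354) that was 3.99 without RS library 3 and did not pass when any 1 other library was left out. The 2 falls, LOC111285245 (-1.88) and LOC111294605 (-1.85), did not pass once size factors were applied (-1.39 and -1.39). Mavicyanin-like LOC111292651, a blue copper protein, was abundant, with 476, 515 and 297 FPKM in the RS libraries and 146, 139 and 140.0 FPKM in the MS libraries, and rose by 1.55 (adjusted p = 0.00477), but not without RS library 1 or 2. The proline-rich wall protein genes LOC111277239 and LOC111277427 fell by 3.73 and 3.72 on the log2 scale, and both were under 1 FPKM in every RS library. In the averaged-MS fit LOC111277427 passed (adjusted p = 0.0109), as LOC111280213 did, and the other 6 of these calls did not (adjusted p = 0.127 to 0.366).

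**Figure D3:**
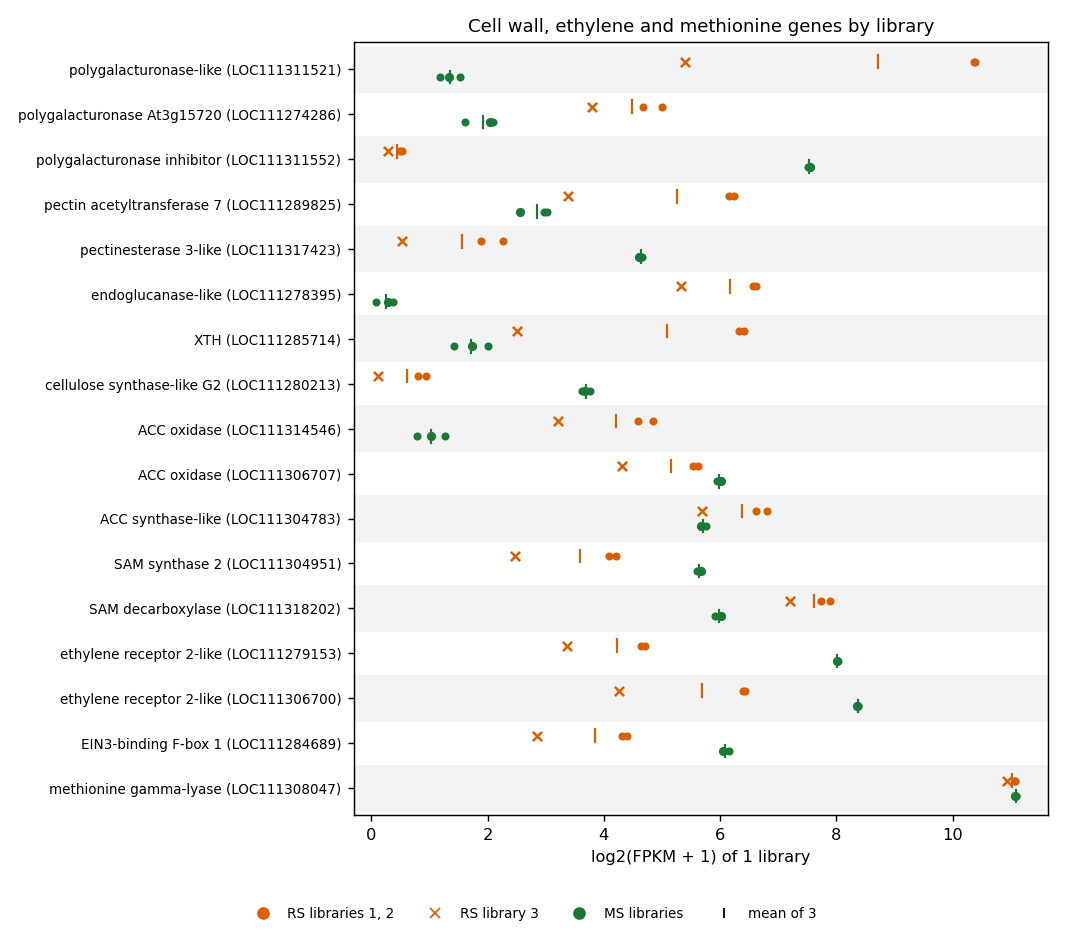
Level of cell wall, ethylene and methionine genes in each library, as log2(FPKM + 1), with the RS libraries in orange above the MS libraries in green, RS library 3 as a cross and the mean of 3 libraries as a tick. RS library 3 is the lowest RS library in each row, whether the gene rose, as polygalacturonase-like LOC111311521 did with 1341, 1319.7 and 41.2 FPKM in RS libraries 1 to 3, or fell.

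Of the ethylene route, receptor-side genes were lower at RS and synthesis genes were mixed. Ethylene receptors repress the response until ethylene binds them. Ethylene receptor 2-like LOC111279153 had 25.02, 23.9 and 9.29 FPKM in the RS libraries and 261, 256 and 258 FPKM in the MS libraries. Its log2 fold change was -3.78 (standard error 0.37, adjusted p = 0.000793), and the fall also passed when RS library 3 was left out (-3.35) or the MS libraries were averaged (adjusted p = 0.0398). The most abundant receptor gene, ethylene receptor 2-like LOC111306700, had 85.1, 83.0 and 18.2 FPKM in the RS libraries and 331, 331 and 328 FPKM in the MS libraries. RS was below MS in every library, and the change of -2.68 (adjusted p = 0.0137) passed without RS library 3 (-1.96) but not when any 1 MS library was left out. Another receptor 2-like gene, LOC111291911, had 1.45, 1.37 and 0.333 FPKM in the RS libraries and 10.04, 9.90 and 9.51 FPKM in the MS libraries and fell (-2.45, adjusted p = 0.00123). EIN3-binding F-box protein 1-like LOC111284689, of a family that marks the EIN3 transcription factor for breakdown, had 18.9, 19.98 and 6.23 FPKM in the RS libraries and 69.8, 65.5 and 65.02 FPKM in the MS libraries and fell (-2.23, adjusted p = 0.00867). Of these falls LOC111306700, LOC111291911 and LOC111284689 did not pass in the averaged-MS fit (adjusted p = 0.192, 0.114 and 0.201). The other EIN3-binding F-box gene LOC111303272 (-1.67, adjusted p = 0.0526) and the sensor LOC111305038 (-0.95, adjusted p = 0.0199) did not pass. In 7 of the 8 tested members all RS libraries were below all MS libraries, against 47.6% of all tested genes. The median of the list was -1.95, beside -0.40 over all tested genes. The kinase CTR1-like LOC111312465, which acts next to the receptors, was the exception and had 1.93, 1.36 and 0.745 FPKM in the RS libraries and 0.327, 0.391 and 0.424 FPKM in the MS libraries (0.73, adjusted p = 0.0442).

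At the synthesis end, ACC oxidase LOC111314546, of the enzyme family that makes ethylene from ACC, had 22.9, 27.6 and 8.28 FPKM in the RS libraries and 1.397, 0.717 and 1.03 FPKM in the MS libraries. RS was above MS in every library, and the rise was 3.19 (adjusted p = 0.00266), which did not pass in the averaged-MS fit (adjusted p = 0.0768). The ACC oxidase gene with the highest FPKM in MS pulp, LOC111306707, had 48.4, 45.2 and 18.8 FPKM in the RS libraries and 62.0, 60.8 and 64.1 FPKM in the MS libraries (-0.83, adjusted p = 0.109), and the most abundant ACC synthase, LOC111304783, had 111, 97.4 and 50.4 FPKM in the RS libraries and 51.2, 53.4 and 49.9 FPKM in the MS libraries (0.66, adjusted p = 0.13). Neither of these passed. Another ACC oxidase, LOC111296866, had 11.4, 14.5 and 0.917 FPKM in the RS libraries and 0.966, 0.683 and 1.04 FPKM in the MS libraries and passed without RS library 3 (2.88, adjusted p = 8.79e-06) or with size factors (2.18), but not with all libraries as deposited (1.92, adjusted p = 0.0841). SAM synthase 2 genes moved apart. LOC111304951 had 16.1, 17.6 and 4.54 FPKM in the RS libraries and 49.1, 47.7 and 50.3 FPKM in the MS libraries and fell (-2.05, adjusted p = 0.0161), although not when RS library 3 (-1.49) or any 1 MS library was left out. LOC111279193 had 32.0, 33.6 and 22.8 FPKM in the RS libraries and 10.1, 10.02 and 11.2 FPKM in the MS libraries with a change of 1.397 that was within the fold threshold and passed without RS library 3 (1.56, adjusted p = 1.44e-05). In all 1 of 14 genes on the synthesis list rose and 3 fell, and 3 rose without RS library 3. Besides LOC111304951, the falls were those of ethylene-overproduction protein 1-like LOC111286414 (-2.21) and ACC synthase LOC111300706 (-1.51). LOC111286414 is on the list but is not an enzyme of the route, so its fall is not that of a synthesis step. Without RS library 3 these came to -1.42 and -1.38, within the fold threshold. LOC111286414 also did not pass when any 1 MS library was left out, nor did LOC111300706 without MS library 3 or with size factors (-1.33). The 3 falls did not pass in the averaged-MS fit (adjusted p = 0.26 to 0.522).

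SAM decarboxylases, which draw SAM into polyamines instead of ethylene, were above MS in every RS library for all 4 tested genes, against 13.4% of all tested genes, and 2 of them rose. LOC111318202 had 212, 237 and 146 FPKM in the RS libraries and 63.3, 59.1 and 63.3 FPKM in the MS libraries and rose (1.63, adjusted p = 0.00283), except without RS library 2. LOC111287069 had 4.28, 5.20 and 5.31 FPKM in the RS libraries and 0.594, 0.745 and 0.63 FPKM in the MS libraries, with RS library 3 the highest, and rose (1.84, adjusted p = 0.000634). For LOC111282309 the values were 175, 194 and 73.2 FPKM in the RS libraries and 53.8, 53.5 and 57.3 FPKM in the MS libraries, a log2 fold change of 1.29 that lay within the fold threshold. Without RS library 3 all 4 tested members rose. Neither call passed in the averaged-MS fit, where the adjusted p of LOC111318202 was 0.199 and that of LOC111287069 0.242.

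Downstream, mitogen-activated protein kinase 3 LOC111284718, a kinase of stress and ethylene responses, had 234, 241 and 188 FPKM in the RS libraries and 59.3, 55.9 and 55.1 FPKM in the MS libraries and rose (1.93, adjusted p = 0.000643). It was 1 of 3 rises among 14 kinases of the cascade, beside LOC111282084 (2.13), which did not pass without MS library 2 or 3, and LOC111275659 (1.60), which did not pass without RS library 1. Of 47 tested ethylene-responsive transcription factors 7 rose and 3 fell, and 14 rose and 3 fell without RS library 3. LOC111290879 had 112, 126 and 36.0 FPKM in the RS libraries and 9.25, 8.57 and 8.47 FPKM in the MS libraries and rose by 3.05 (adjusted p = 0.00414). The most abundant that rose, LOC111280307, had 223, 239 and 137 FPKM in the RS libraries and 34.7, 36.9 and 37.4 FPKM in the MS libraries and rose by 2.39 (adjusted p = 0.000998). LOC111299480 had 6.58, 5.94 and 1.27 FPKM in the RS libraries and 59.8, 62.1 and 61.5 FPKM in the MS libraries and fell (-3.66, adjusted p = 0.00203). LOC111299988 was in none of the MS tables and had 5.37, 5.82 and 1.52 FPKM in the RS libraries. The list's median was 0.26, and 37 of the 47 did not pass. The 7 calls named among these kinases and factors did not pass in the averaged-MS fit (adjusted p = 0.0825 to 0.269).

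Abscisic acid (ABA) genes of inactivation and response were higher at RS, and a gene of the committed step did not pass. The 9-cis-epoxycarotenoid dioxygenase gene LOC111280882, of the enzyme that commits carotenoids to ABA, had 169, 151 and 168 FPKM in the RS libraries and 169, 180.2 and 168 FPKM in the MS libraries. The groups overlapped (-0.08, adjusted p = 0.699), and with size factors the log2 fold change was 0.47 (adjusted p = 0.257). By contrast, abscisate beta-glucosyltransferase-like LOC111291309, which stores ABA as a glucose ester, had 64.0, 64.9 and 55.1 FPKM in the RS libraries and 0.351, 0.239 and 0.569 FPKM in the MS libraries and rose by 5.49 (adjusted p = 2.34e-05). ABA 8'-hydroxylase 4-like LOC111296235, of the family that breaks ABA down, had 12.9, 13.1 and 1.54 FPKM in the RS libraries and was in none of the MS tables. Its rise (adjusted p = 0.0146) did not pass when any 1 MS library was left out. Early-responsive to dehydration protein 7 (ERD7) LOC111308755 had 339.8, 361 and 280.0 FPKM in the RS libraries and 6.79, 4.92 and 6.90 FPKM in the MS libraries and rose by 5.51 (adjusted p = 4.42e-05). A pair of GEM-like protein 5 genes, whose relatives in Arabidopsis respond to ABA, rose as well. LOC111316515 had 650.4, 674 and 362 FPKM in the RS libraries and 14.2, 16.7 and 14.7 FPKM in the MS libraries (5.07, adjusted p = 0.000107), and LOC111293487 rose by 5.14. All of these rises except that of LOC111296235 passed also with the MS libraries averaged. In 9 of 10 members RS was above MS in every library, against 13.4% of all tested genes, and the median was 2.89. The study lists each rising ABA gene described here as up-regulated at this step in these samples. The direction of the list therefore follows in part from that choice and is no finding about these genes as a group. YS means were 471, 375 and 672 FPKM for LOC111291309, LOC111308755 and LOC111316515, so these genes were high at YS and at RS and low at MS. A YS mean on the RS side of the MS mean was not particular to them, as 703 of all 853 rises had it. On the log2 scale the YS mean was nearer to the RS mean than to the MS mean in 507 of the rises. It lay beyond the RS mean, as in these genes, in 290.

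Other hormone genes were few. 12-oxophytodienoate reductase 11 LOC111274382, of jasmonate synthesis, had 8.65, 9.87 and 7.71 FPKM in the RS libraries and 0.155, 0.0417 and 0.554 FPKM in the MS libraries and rose by 2.98 (adjusted p = 0.000238). Of 4 tested auxin and cytokinin genes 3 fell. Histidine kinase 5-like LOC111302841 had 50.8, 45.9 and 25.6 FPKM in the RS libraries and 288, 288 and 291 FPKM in the MS libraries and fell (-2.85, adjusted p = 0.000776). Only some histidine kinases are cytokinin receptors, and its name does not make this gene such a receptor. YUCCA4-like LOC111285374, of the family that makes auxin from indole-3-pyruvate, had 0.338, 0.342 and 0 FPKM in the RS libraries and 8.82, 8.61 and 10.5 FPKM in the MS libraries and fell (-3.08, adjusted p = 0.000161). The LOG3-like gene LOC111311845, of the family that releases active cytokinin, fell by 2.59 on the log2 scale. The gene that rose was LOC111305464, a gene named for its induction by auxin in root cultures (2.51, adjusted p = 0.0051). LOC111302841 passed in the averaged-MS fit (adjusted p = 0.0479), and the other 4 of these calls did not (adjusted p = 0.074 to 0.304).

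Most tested heat shock genes and all tested glutathione S-transferase genes rose. The study lists each of these glutathione S-transferases, and several of the heat shock genes, as up-regulated at this step in these samples. Their shared direction follows from that choice and is no finding about the families. Small heat shock proteins hold unfolding proteins in a state from which they can be refolded. The chloroplastic gene LOC111287629 had 69.8, 69.9 and 55.0 FPKM in the RS libraries and 0.165, 0.267 and 0.313 FPKM in the MS libraries and rose by 5.72 (standard error 0.18, adjusted p = 2.31e-05). Class I gene LOC111303688 had 167, 171 and 143 FPKM in the RS libraries and 3.60, 2.82 and 3.87 FPKM in the MS libraries and rose by 5.19 (adjusted p = 3.63e-05). Class II gene LOC111299242 and heat stress transcription factor A-2-like LOC111299261, an activator of such genes, rose by 5.08 and 2.74. In the factor's case the values were 43.2, 44.3 and 53.6 FPKM in the RS libraries and 6.08, 6.44 and 5.95 FPKM in the MS libraries, with RS library 3 the highest. The class I genes LOC111303683, LOC111303688, LOC111303682 and LOC111303701 lie between 18808261 and 18864023 on scaffold NW_019167882.1 and rose by 3.27, 5.19, 2.81 and 4.36. A further class I gene beside them, LOC111302663, had 4.26, 2.12 and 2.80 FPKM in the RS libraries and 1.49, 1.67 and 1.62 FPKM in the MS libraries (0.62, adjusted p = 0.0727) and did not pass. Reads of near copies can be shared between them, so their separate values are uncertain. Of the 11 list members 9 rose, 6 of them also with the MS libraries averaged, where LOC111303682 did not pass (adjusted p = 0.0726).

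Glutathione S-transferases join glutathione to reactive molecules. The most abundant member, LOC111298889, had 533, 511 and 237 FPKM in the RS libraries and 10.9, 9.96 and 8.74 FPKM in the MS libraries and rose by 5.21 (adjusted p = 0.000161). The U8-like gene LOC111311985, which another durian assembly lists as a transcribed pseudogene, had 190.0, 199 and 157 FPKM in the RS libraries and 0.913, 1.04 and 1.59 FPKM in the MS libraries and rose by 6.40 (adjusted p = 2.31e-05). A set of U8-like genes, LOC111296619, LOC111296858 and LOC111296590, lies on scaffold NW_019168492.1 between 25129091 and 25158826, on one strand and with 1 other gene between each and the next. LOC111296619 had 261, 306 and 96.5 FPKM in the RS libraries and 2.79, 2.71 and 2.56 FPKM in the MS libraries. LOC111296858 had 47.9, 62.1 and 14.2 FPKM in the RS libraries and 0.0998, 0.181 and 0.125 FPKM in the MS libraries, and LOC111296590 had 49.7, 64.9 and 14.7 FPKM in the RS libraries and 0.0998, 0.183 and 0.125 FPKM in the MS libraries, nearly the same values, so reads may be shared by this pair. All 6 members rose with all libraries, and again when RS library 3 was left out or the MS libraries were averaged, and the median was 5.27.

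Of 10 tested WRKY, ZAT and MYB transcription factors 3 rose, 1 fell and 6 did not pass, with the same counts of rises and falls without RS library 3. Zinc finger protein ZAT12-like LOC111303611, a transcription factor of oxidative and cold stress in Arabidopsis, had 244, 238 and 221 FPKM in the RS libraries and 6.03, 6.38 and 6.04 FPKM in the MS libraries and rose by 5.04 (standard error 0.16, adjusted p = 2.31e-05), but did not pass in the averaged-MS fit (adjusted p = 0.06). ZAT10-like LOC111295774 rose by the same 5.04 (adjusted p = 0.000203, and 0.0311 with the MS libraries averaged). The OXI1-like kinase LOC111305461, of a kinase family that oxidative signals activate, had 100.4, 96.2 and 75.6 FPKM in the RS libraries and 2.58, 2.82 and 3.17 FPKM in the MS libraries and rose by 4.56 (adjusted p = 5.71e-05). Of 9 tested calcium signalling genes 6 rose, with and without RS library 3, and 1 in the averaged-MS fit. The sodium/calcium exchanger NCL-like LOC111287154 had 22.1, 24.8 and 7.15 FPKM in the RS libraries and 0.0447, 0.357 and 0.0417 FPKM in the MS libraries and rose by 3.89 (adjusted p = 0.00146, and 0.108 with the MS libraries averaged). Probable nucleoredoxin 1 LOC111282845, which keeps protein thiols reduced, had 81.2, 81.97 and 41.0 FPKM in the RS libraries and 0.786, 1.06 and 0.73 FPKM in the MS libraries and rose by 5.15 (adjusted p = 0.000125). This rise and that of LOC111305461 also passed with the MS libraries averaged.

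**Figure D4:**
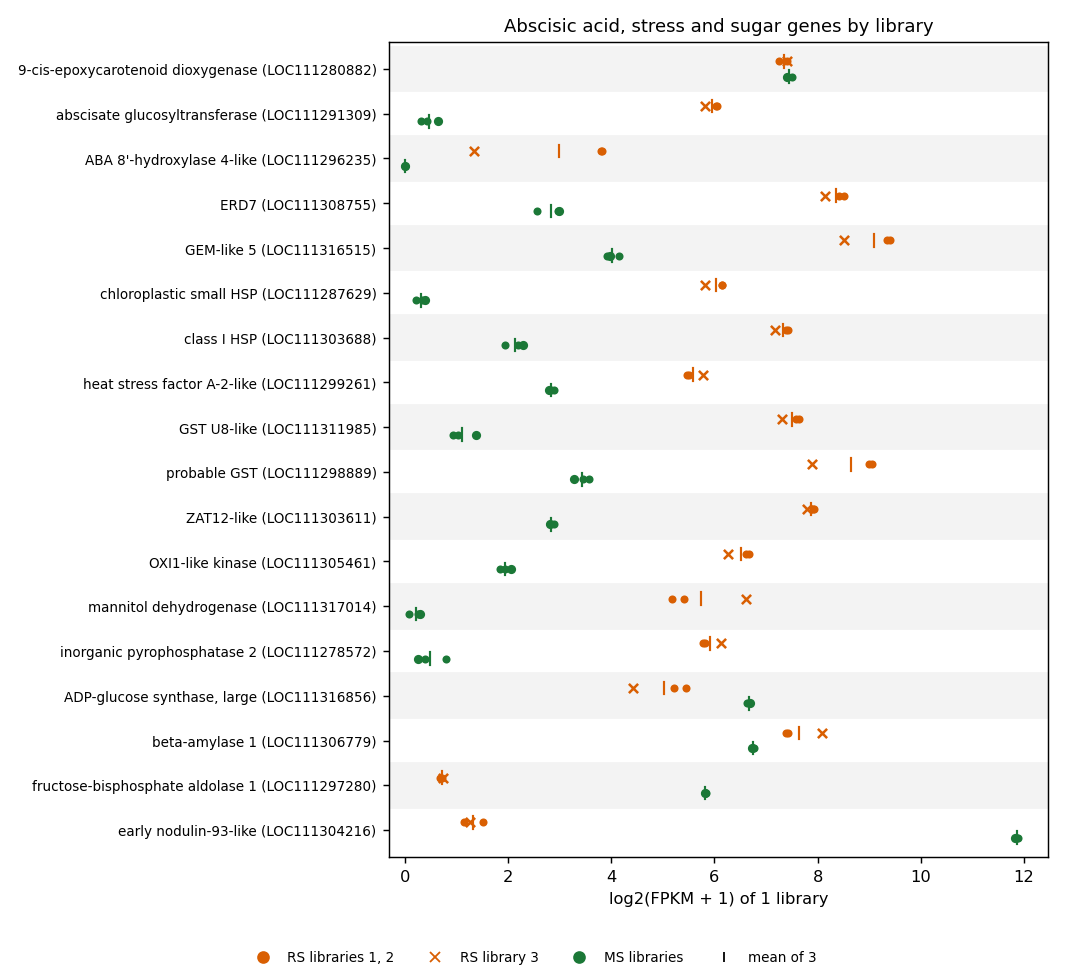
Level of abscisic acid, stress and sugar genes in each library, as log2(FPKM + 1), with the RS libraries in orange above the MS libraries in green, RS library 3 as a cross and the mean of 3 libraries as a tick. RS library 3 lies beside the other RS libraries for the chloroplastic small heat shock protein (69.8, 69.9 and 55.0 FPKM in RS libraries 1 to 3) and above them for mannitol dehydrogenase (35.4, 41.4 and 96.8 FPKM).

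Genes of carbon metabolism gave a few large changes. Probable mannitol dehydrogenase LOC111317014, of a family that oxidises sugar alcohols or aromatic alcohols, had 35.4, 41.4 and 96.8 FPKM in the RS libraries and 0.0602, 0.189 and 0.227 FPKM in the MS libraries and rose by 5.52 (adjusted p = 0.000195). Inorganic pyrophosphatase 2-like LOC111278572 is named after enzymes that split pyrophosphate, and its own substrate was not tested. It had 53.8, 55.2 and 69.3 FPKM in the RS libraries and 0.315, 0.733 and 0.189 FPKM in the MS libraries and rose by 5.43 (adjusted p = 5.35e-05). Phosphoenolpyruvate carboxylase kinase 1-like LOC111293969, the activating kinase of that carboxylase, had 31.8, 36.7 and 55.7 FPKM in the RS libraries and 1.10, 1.12 and 1.29 FPKM in the MS libraries and rose by 4.25 (adjusted p = 0.000115). In these 3 genes RS library 3 was the highest library. The chloroplastic fructose-bisphosphate aldolase 1 gene LOC111297280 had 0.643, 0.613 and 0.666 FPKM in the RS libraries and 56.5, 55.2 and 55.5 FPKM in the MS libraries and fell (-5.11, adjusted p = 2.31e-05). All 4 changes passed with the MS libraries averaged.

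For starch, the large subunit of glucose-1-phosphate adenylyltransferase, LOC111316856, which makes the ADP-glucose used by starch synthesis, had 42.8, 36.0 and 20.5 FPKM in the RS libraries and 97.9, 101.1 and 102 FPKM in the MS libraries and fell (-1.63, adjusted p = 0.00674). Branching enzyme 1 LOC111291600 had 6.73, 6.43 and 3.74 FPKM in the RS libraries and 16.9, 17.95 and 18.3 FPKM in the MS libraries and fell (-1.53, adjusted p = 0.00419). RS was below MS in every library for both genes, but neither fall passed without RS library 3 (-1.33 and -1.30), with size factors (-1.09 and -1.04) or in the averaged-MS fit (adjusted p = 0.33 and 0.301). The most abundant beta-amylase gene, LOC111306779, had 169.8, 167 and 272 FPKM in the RS libraries and 107, 107 and 105 FPKM in the MS libraries (0.89, adjusted p = 0.0271), within the fold threshold, and the DPE2 glucanotransferase LOC111293942 had 70.8, 67.7 and 86.0 FPKM in the RS libraries and 108, 107 and 106.3 FPKM in the MS libraries (-0.52, adjusted p = 0.054). Of 8 tested starch genes 2 fell, and 3 rose without RS library 3, among them beta-amylase 1 LOC111279622 (1.69) and beta-amylase 3 LOC111305012 (1.55). With size factors and all 6 libraries 2 rose. The list's median was 0.18 with all libraries as deposited and 0.018 without RS library 3.

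Among 14 tested genes of soluble sugars 4 rose and 1 fell. The counts were the same without RS library 3, although a trehalose-phosphate phosphatase gene (LOC111287763, 1.48) then left the rises and a sucrose-phosphatase gene (LOC111311629, 1.57) joined them. Galactinol-sucrose galactosyltransferase 5 LOC111316628, of raffinose synthesis, had 4.76, 5.10 and 2.75 FPKM in the RS libraries and 0.0725, 0.134 and 0.0995 FPKM in the MS libraries and rose by 2.21 (adjusted p = 0.00101). Its rise did not pass in the averaged-MS fit (adjusted p = 0.409), and neither did LOC111287763 (adjusted p = 0.232), which was also lost without MS library 2 or 3. The sugar transporter N3 gene LOC111318443 was abundant at both stages, with 1249.7, 1075 and 341 FPKM in the RS libraries and 834, 848 and 846 FPKM in the MS libraries. It did not pass (-0.13, adjusted p = 0.847), and its log2 fold change was 0.46 without RS library 3. The vacuolar acid invertase gene LOC111290775 (acid beta-fructofuranosidase 1), which splits sucrose, had 11.4, 12.99 and 0.303 FPKM in the RS libraries and 0.189, 0.202 and 0.272 FPKM in the MS libraries and reached 1 FPKM in too few libraries to be tested.

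Of the methionine gamma-lyase genes the most abundant did not pass and another rose. LOC111308047 had 2154, 2158 and 1954 FPKM in the RS libraries and 2192, 2187 and 2153 FPKM in the MS libraries. RS and MS libraries overlapped, and the log2 fold change was -0.06 (standard error 0.16, adjusted p = 0.777), and 0.49 (adjusted p = 0.162) with size factors. The YS libraries had 1086, 142 and 293 FPKM. With 1 gene between them, LOC111308026, which another durian assembly lists as a long non-coding RNA, lies on the same scaffold, NW_019167827.1, and had 4.71, 2.71 and 3.66 FPKM in the RS libraries and 9.47, 7.93 and 8.18 FPKM in the MS libraries (-1.04, adjusted p = 0.012), a change within the fold threshold. LOC111290112, on scaffold NW_019168381.1, had 7.54, 7.38 and 46.6 FPKM in the RS libraries and 1.93, 0.981 and 1.68 FPKM in the MS libraries and was the 1 member of 4 tested that rose (2.59, adjusted p = 0.0255). RS library 3 carried much of that mean, the log2 fold change without it was 1.76, and the rise did not pass when any 1 MS library was left out. The remaining tested member, LOC111287425, did not pass. LOC111315809, which the study describes as abundant in ripening pulp, is in the data but reached 1 FPKM in too few libraries to be tested. Both tested genes of sulfur supply fell. The sulfate transporter 1.3-like gene LOC111294357 had 0.0412, 0.182 and 0.108 FPKM in the RS libraries and 7.88, 8.92 and 7.92 FPKM in the MS libraries (-3.06, adjusted p = 0.000107). Cysteine synthase 2-like LOC111287927 had 20.4, 17.3 and 16.6 FPKM in the RS libraries and 54.8, 56.8 and 59.9 FPKM in the MS libraries (-1.61, adjusted p = 0.00105), and with size factors it did not pass (-1.07). In the averaged-MS fit LOC111290112, LOC111294357 and LOC111287927 did not pass (adjusted p = 0.333, 0.115 and 0.221).

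Of 8 tested genes of glycosyl transfer and aroma chemistry 2 rose and 3 fell. LOC111293555, named benzyl alcohol O-benzoyltransferase-like after enzymes that join alcohols and acyl-CoA into esters, had 215, 205 and 191 FPKM in the RS libraries and 594, 587 and 578 FPKM in the MS libraries and fell (-1.52, adjusted p = 0.000998). The fall did not pass without RS library 3 (-1.48) or with size factors (-0.97). Shikimate O-hydroxycinnamoyltransferase-like LOC111274350, of the same acyltransferase family, had 22.1, 22.6 and 25.5 FPKM in the RS libraries and 71.3, 70.5 and 72.0 FPKM in the MS libraries and fell (-1.57, adjusted p = 0.000925), but did not pass with size factors (-1.03). Crocetin glucosyltransferase LOC111292230 had 18.1, 19.9 and 1.32 FPKM in the RS libraries and 0.119, 0.244 and 0.197 FPKM in the MS libraries and rose by 3.04 (adjusted p = 0.0281), which did not pass when any 1 library other than RS library 3 was left out. UDP-glycosyltransferase 73C6-like LOC111311009 had 3.22, 5.17 and 5.15 FPKM in the RS libraries and 0.0403, 0.156 and 0.13 FPKM in the MS libraries and rose by 2.29 (adjusted p = 0.000638). These 4 calls did not pass in the averaged-MS fit (adjusted p = 0.0671 to 0.547).

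The largest falls among the 470 tested genes with a product name were those of a pair that was among the 10 most abundant genes at MS. LOC111304216 and LOC111304214, a pair named early nodulin-93-like, lie on one strand of scaffold NW_019167882.1, 14305 bases apart with 1 gene between them. LOC111304216 had 1.23, 1.87 and 1.42 FPKM in the RS libraries and 3724, 3765 and 3634 FPKM in the MS libraries, and LOC111304214 had 1.21, 1.89 and 1.43 FPKM in the RS libraries and 3501, 3509 and 3466 FPKM in the MS libraries. The RS values of the copies were nearly equal library by library, so reads may be shared between them. Log2 fold changes were -10.54 and -10.45 (adjusted p = 1.29e-06 for each). Stem-specific protein TSJT1-like LOC111287652 had 1.33, 1.12 and 0 FPKM in the RS libraries and 105, 105 and 100.7 FPKM in the MS libraries (-5.94, adjusted p = 0.000115), where the 0 means that the table of RS library 3 does not list it. Solute carrier family 25 member 44-like LOC111299239, a mitochondrial carrier, fell by 5.58, and aquaporin SIP1-1-like LOC111294421, a water channel, by 4.49 on the log2 scale. These 5 falls also passed with the MS libraries averaged.

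LOB domain transcription factors fell with them, 5 of 7 tested, against 5.26% of all tested genes. The study lists several LOB genes as up-regulated from YS to MS, or as down-regulated at this step, in these samples. Their shared direction follows in part from that choice and is no finding about the family. LOB domain-containing protein 18 LOC111304630 had 76.9, 69.4 and 58.0 FPKM in the RS libraries and 847, 842 and 828 FPKM in the MS libraries, and fell (-3.61, adjusted p = 8.21e-05). Plant cysteine oxidase 2-like LOC111277014, of the enzymes that mark hypoxia-response factors for breakdown in Arabidopsis, had 7.20, 5.57 and 0.558 FPKM in the RS libraries and 94.2, 86.8 and 90.6 FPKM in the MS libraries and fell (-4.39, adjusted p = 0.00277). DOWNY MILDEW RESISTANCE 6-like LOC111289583, of a family that hydroxylates salicylic acid or flavonoids, fell by 4.72 on the log2 scale, and the transporter DETOXIFICATION 40-like LOC111281105 by 4.45. RS library 3 was the lowest library for these last 3 genes, at 0.558, 0.563 and 0.555 FPKM, and each passed without it (-3.64, -3.89 and -3.65). The MYB-type transcription factor gene LOC111313342 had 0.171, 0.0898 and 0.0921 FPKM in the RS libraries and 11.5, 13.6 and 15.1 FPKM in the MS libraries and fell (-3.68, adjusted p = 8.21e-05). In the averaged-MS fit LOC111277014 and LOC111313342 did not pass (adjusted p = 0.101 and 0.0626), while LOC111304630, LOC111289583 and LOC111281105 did.

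Several of the highest RS loci have no product name and stood out by their pattern. LOC111291566 had 5301, 5938 and 23532 FPKM in the RS libraries and 385, 475 and 371 FPKM in the MS libraries, and LOC111289173 had 2597, 2744 and 10098 FPKM in the RS libraries and 158, 182 and 173 FPKM in the MS libraries. In both, RS library 3 was far above the other RS libraries, which were themselves above MS. The same held for LOC111286978 (1434, 1444 and 6104 FPKM in the RS libraries and 83.3, 64.4 and 76.7 FPKM in the MS libraries), which another durian assembly lists as ribosomal RNA. These 3 and LOC111291563, LOC111291564, LOC111291565, LOC111291567 and LOC111314675, grouped after their values had been seen, held 4.08%, 4.41% and 22.9% of the FPKM in RS libraries 1, 2 and 3, against 0.279% to 0.355% in the MS libraries. Of the 30 tested genes that the other assembly lists as tRNA or rRNA, 15 rose and 2 fell, against 3.95% and 5.26% of all tested genes. Their part in the lowered FPKM of RS library 3 was not tested. The 8 loci did not pass in the averaged-MS fit (adjusted p = 0.0591 to 0.298). Of the other unnamed genes, LOC111278347 (888, 1065 and 266 FPKM in the RS libraries and 1.14, 0.852 and 3.86 FPKM in the MS libraries) and LOC111310702 (501, 575 and 1301 FPKM in the RS libraries and 9.96, 9.24 and 5.93 FPKM in the MS libraries) had the largest rises (7.88 and 6.30), together with LOC111278348 (6.70), and of these LOC111278347 did not pass in the averaged-MS fit (adjusted p = 0.0726). The largest falls were those of LOC111294291 (0.486, 0.758 and 0.548 FPKM in the RS libraries and 295, 301 and 293 FPKM in the MS libraries) and LOC111283878 (0.709, 0.902 and 0.14 FPKM in the RS libraries and 59.8, 64.6 and 62.8 FPKM in the MS libraries). LOC111292022, one of the most abundant genes of both stages, had 11971, 12716 and 1829.5 FPKM in the RS libraries and 11793, 11742 and 12338 FPKM in the MS libraries. It did not pass (-0.87, adjusted p = 0.362), and without RS library 3 its log2 fold change was 0.05.

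RS library 3 was not lower to the same degree in all gene groups. Over all tested genes its level was -0.72 on the log2 scale relative to the mean of RS libraries 1 and 2, at the median. For XTH genes the median was -3.21, for pectinesterases and pectin acetylesterases -2.71 and for cellulose synthases -1.55. For small heat shock proteins and their partners it was -0.29, for abscisic acid genes -0.42, and for the genes of glycolysis and fermentation 0.12. The lists did not divide throughout by kind of gene. Glutathione S-transferases (-1.45) and calcium signalling genes (-1.16) lay further below RS libraries 1 and 2 than the median of all genes. Cell wall proteins and laccases (-0.68) lay near that median. Their median level in RS libraries 1 and 2 was 1.45 FPKM, against 24.3 FPKM for XTH genes. On the log2(FPKM + 1) scale genes that low can drop only little, so these medians cannot be compared directly. These are values of 1 library, with no replicate of its state, and no test was made. Of all 853 rises, 62 had RS library 3 at 1.5 times the mean of the other RS libraries or more.

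**Figure D5:**
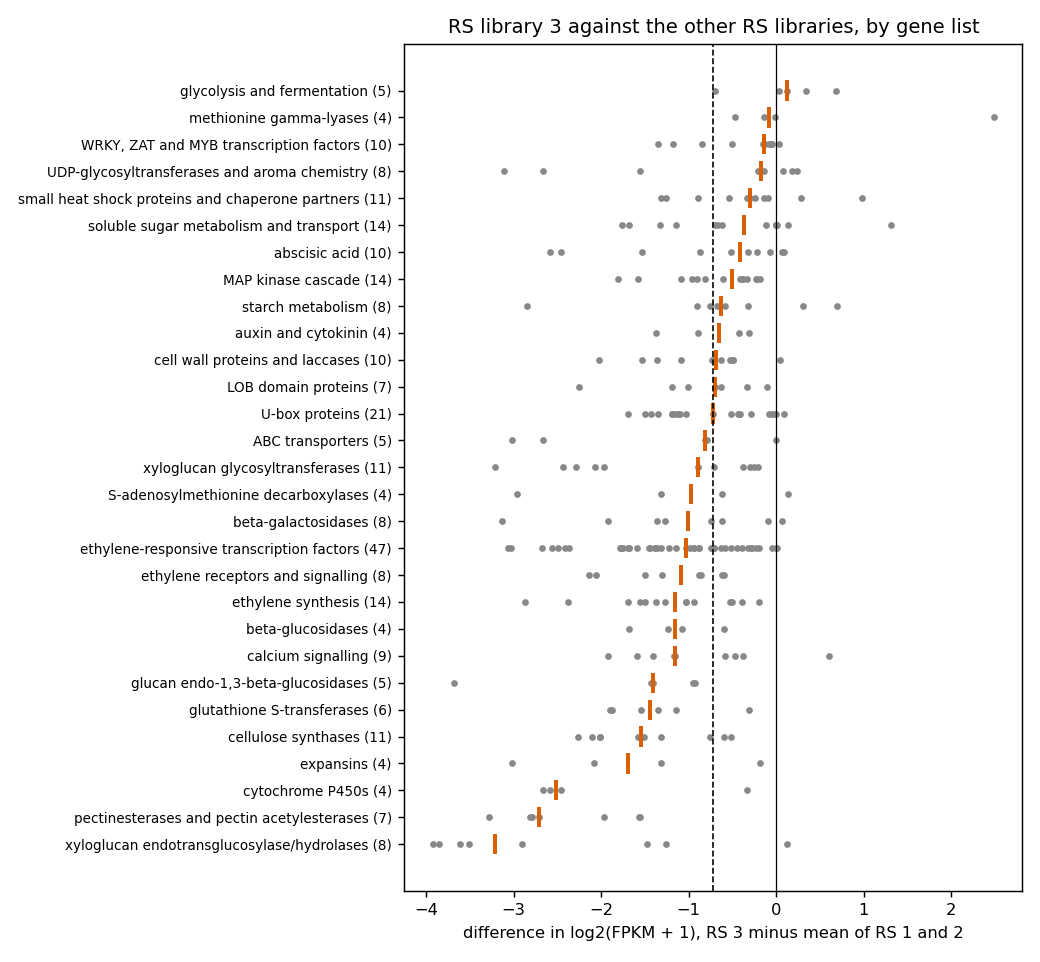
Level of each tested list member (grey points) in RS library 3 relative to the mean of RS libraries 1 and 2, as a difference of log2(FPKM + 1), with the list median in orange, 0 as a solid line and the median of all 21598 tested genes (-0.72) as a dashed line. Lists run from glycolysis and fermentation (0.12) at the top to xyloglucan endotransglucosylase/hydrolases (-3.21) at the bottom.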

How the data were processed

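The deposited tables give StringTie gene abundances, 1 table per library. The study mapped its reads with several tools, of which HISAT2 was joined with StringTie and TopHat with Cufflinks, and the submitters' notes name FastQC, Trimmomatic, Bowtie and TopHat. The mapper behind these tables, versions and the genome build are not given in the sources used here. The authors' FPKM are the values tested. The deposited coverage, a signal of read depth, served only to read the mapped bases from its ratio to FPKM. The deposited column named TPM was treated as a score and not tested, since its sum over all rows of a table is larger than TPM can give.

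Reference genes only were tested, with limma 3.58.1 in R 4.3.3 (two-sided moderated test, Benjamini-Hochberg over 21598 genes), and tables were made in Python 3.11.15. Alternatives changed the value added to FPKM, the filter, the scaling, the prior variance, the replicate block, the libraries in the fit and the MS libraries as 1 sample. Product names came from the study's tables (593 genes), and another durian assembly gave gene types only. A product name was at hand for 470 of the 21598 tested genes, among them 91 of the 853 rises and 74 of the 1136 falls. Rankings among named products cover only these genes. Members and lists were chosen with earlier results of these data known.

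Genes were named by a rule: the 15 largest rises and 15 largest falls with a product name and a mean of 10 FPKM or more, genes the study names for this step, up to 4 called members of each list, the 10 most abundant genes of each stage, the 3 largest unnamed rises and falls, and list neighbours of these on a scaffold. Not every gene that the rule gives is described. Outside the rule, and chosen after their values were seen, are LOC111292651, LOC111303272, LOC111305038, LOC111312465, LOC111306707, LOC111304783, LOC111296866, LOC111279193, LOC111282309, LOC111280882, LOC111299261, LOC111306779, LOC111293942, LOC111279622, LOC111318443, LOC111311629, LOC111290775, LOC111293555, LOC111274745, LOC111274750 and LOC111286978.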

Additional observations from a re-analysis of the deposited data

Results flagged for a closer look

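Beside the reference genes, each library's table holds loci assembled from its own reads, which no comparison above uses. Of 245 such loci in RS library 1 that lay outside reference genes at an FPKM of 10 or more, 3 were at 10 or more in each RS library and had no assembled locus in any MS library. The first, on scaffold NW_019168381.1 from 5967739 to 5967941, had 36.5, 47.9 and 52.5 FPKM in the RS libraries. The next, on the same scaffold from 11732609 to 11732809, had 27.6, 26.7 and 32.0 FPKM in the RS libraries, and both also had an assembled locus in YS libraries 1 and 3. The last, on NW_019168492.1 from 24061373 to 24062145, had 12.5, 15.4 and 15.9 FPKM in the RS libraries and none in YS. Loci are assembled anew in each library, so an absent locus is not a measured 0.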

How the results depend on the processing

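Counts of changed genes depended on the scale. Against 853 rises and 1136 falls, adding 5 to each FPKM gave 437 and 403, adding 0.1 gave 1285 and 2122, size factors gave 1409 and 463, and averaging the MS libraries gave 128 and 58. Size factors of 5 libraries with RS library 3 left out, an alternative chosen after seeing the data, gave 1534 and 448. Leaving out 1 library at a time gave 714 to 1310 rises and 630 to 1618 falls, where 1310 and 630 are the counts without RS library 3. Of the list genes, with 67 rises and 38 falls, adding 5 gave 38 and 18, a filter of 5 FPKM gave 39 rises, averaging the MS libraries gave 21 and 10, and size factors of 5 libraries gave 105 and 25. Leaving out 1 library at a time gave 51 to 100 list rises and 31 to 43 list falls. Counts under no filter, the filter of 5 FPKM over all genes, the fit on 9 libraries and the trended prior variance were within 1.5 times of these. Of the 97 genes described or plotted that passed, 58 were lost with the MS libraries averaged, 28 with 5 added, 10 with no filter, 8 with size factors, 4 in the fit on 9 libraries, 2 with 0.1 added and 7 to 14 with 1 library left out.

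Signs turned for 5 of the genes described, none of which had passed (their smallest adjusted p was 0.054). LOC111308047 came to 0.49 with size factors and 0.19 with those of 5 libraries, and LOC111280882 to 0.47 and 0.0947. LOC111318443 came to 0.43 with size factors, 0.46 without RS library 3 and 0.66 with size factors of 5 libraries, with a range of -0.48 to 0.46 over libraries left out. LOC111292022 came to 0.0456 without RS library 3 and 0.25 with size factors of 5 libraries, with a range of -1.35 to 0.0456 over libraries left out, and LOC111293942 to 0.0322 with size factors. The cause was not tested.

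A replicate block on the library numbers gave 899 rises and 1170 falls, with 71 and 40 among the list genes. No pairing by number was seen. Deviations of same-numbered RS and MS libraries had correlations of -0.0038, -0.0038 and -0.0028, and those of differently numbered libraries lay between -0.0055 and 0.0091. With MS libraries so nearly the same, this check could not have shown a pairing and does not decide the question. The small number of libraries a stage, the near equality of the MS libraries and the low FPKM of RS library 3 limit what the p-values carry. No sequence is shown because no reference sequence of this build was used here.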
